A study of Mus musculus with 10 samples.

Results

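The genes described here are 40 complement and coagulation genes that hepatocytes express for secretion into the blood, out of 21939 genes in the deposited table. They were chosen by name, as the table's genes whose Ensembl identifiers carry the symbols of classical, lectin, alternative and terminal complement components, complement regulators, clotting factors, fibrinogen chains, anticoagulants and fibrinolysis proteins, and each of the 40 matched 1 gene. RNA was measured by poly-A RNA-seq in hepatocytes that had been taken fresh from livers of adult male mice 12 days after an injection of AAV8Cre at 8 to 9 weeks of age. AAV8Cre is an adeno-associated virus with liver tropism that carries Cre recombinase under the hepatocyte-specific thyroxine-binding globulin promoter. Control mice (C57BL6/j, n = 3) had no floxed alleles and received the same virus, Nrf2 KO mice (n = 2) had floxed Nrf2 alleles, p65 KO mice (n = 2) floxed p65 alleles, and Nrf2:p65 double knockout mice (DKO, n = 3) floxed alleles of both genes. The recombination was therefore directed to hepatocytes, and the other liver cells kept both genes. The study states that the floxed mice shared the genetic background of the control mice. The hepatocytes had been purified by low-speed and Percoll centrifugation, not by a sort. Estimated counts per library summed to between 33707165 and 49897382. The study counts its sequenced groups in mice, and each library was taken as a separate mouse.

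The complement system is a cascade of blood proteins that tags particles for uptake and can form pores in membranes, and the coagulation cascade turns fibrinogen into a fibrin clot. Most proteins of both cascades are made by hepatocytes, and several belong to the acute phase response, in which inflammatory cytokines acting through STAT3 and NF-κB raise their synthesis. p65, encoded by Rela, is a subunit of NF-κB, and Nrf2, encoded by Nfe2l2, is a transcription factor of the antioxidant response.

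The totals of the targeted genes were examined first, since they check the labels. Nfe2l2 (chr2:75504739-75534985, GRCm39, minus strand) had 2318, 1991 and 1990 normalized counts in the control libraries, 4739 and 5005 in those labelled Nrf2 KO, 1993 and 1997 in those labelled p65 KO, and 4111, 3434 and 5240 in those labelled DKO. Its total was higher in every library with floxed Nrf2 alleles than in every other library, with a log2 fold change against control of 1.21 ± 0.16 (SE; edgeR adjusted p = 0.00488) in Nrf2 KO and 1.02 ± 0.14 (edgeR adjusted p = 0.00347) in DKO. Without Nrf2 KO replicate 2, the first of these was 1.17 with an edgeR adjusted p of 0.0816. Rela (chr19:5687493-5698161, plus strand) had 1221, 1276 and 1269 normalized counts in control, 1268 and 1225 in Nrf2 KO, 1183 and 1209 in p65 KO, and 1488, 1241 and 1034 in DKO. The log2 fold change of Rela was -0.07 ± 0.14 (edgeR adjusted p = 0.765) in p65 KO and 0.00 ± 0.12 (edgeR adjusted p = 0.998) in DKO. The table holds 1 total per gene over all exons, so these totals do not show whether a floxed part was lost, and neither gene was called lower in the libraries labelled as its knockout. The groups below are therefore named as the libraries were labelled.

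The cell type was examined with marker genes. The 10 hepatocyte markers summed to between 3977047 and 6190886 normalized counts per library, with albumin as the most abundant gene, and albumin alone took 6.74% to 10.3% of all counts. Markers of other liver cells were present at far lower levels and differed between the genotypes. The 12 Kupffer cell markers, of which Cd5l was the most abundant, summed to 375.5, 950.9 and 726.6 normalized counts in control, 815.6 and 262.7 in Nrf2 KO, 6236 and 4518 in p65 KO, and 2935, 2041 and 1706 in DKO. Of these 12 genes, 12 were higher than control in p65 KO and 6 in DKO by the edgeR test. The 9 monocyte and dendritic cell markers, led by Cd74, summed to between 172.3 and 365.8 in the control and Nrf2 KO libraries, to 3511 and 2754 in p65 KO, and to 1678, 1545 and 849.0 in DKO, with 5 of the 7 tested genes higher in p65 KO and 3 in DKO, while Flt3 and Cd209a were at 0 in control. The 10 endothelial markers, led by Ptprb, summed to 690.2, 1268 and 1553 in control, 1813 and 853.6 in Nrf2 KO, 5051 and 3501 in p65 KO, and 2247, 2704 and 1716 in DKO, and 9 of the 10 were higher in p65 KO and 1 in DKO. The 10 stellate cell markers, led by Dcn, summed to between 171.4 and 393.2 in the control and Nrf2 KO libraries, to 1975 and 1921 in p65 KO, and to 361.9, 915.6 and 350.1 in DKO, and 8 of the 10 were higher in p65 KO and 1 in DKO, with Col1a1 at 0 in control. The 6 neutrophil markers, led by Csf3r, summed to 4.417, 4.917 and 2.802 in control, 2.966 and 5.658 in Nrf2 KO, 51.81 and 10.40 in p65 KO, and 29.45, 28.05 and 9.154 in DKO, with 1 of the 3 tested genes higher in p65 KO. Ly6g was at 0 in all 10 libraries. The 8 T and NK cell markers, led by Cd4, summed to 25.40, 36.38 and 14.01 in control, 62.28 and 61.43 in Nrf2 KO, 33.53 and 36.86 in p65 KO, and 150.4, 85.28 and 70.94 in DKO, with 1 of the 4 tested genes higher in DKO and Cd3d, Cd3g, Trac, Nkg7 and Cd8a at 0 in control. Cd4 made up most of the T and NK cell sum, with 138.9, 75.18 and 64.08 in DKO, while each of the other 7 markers had at most 9.467 in any library. Of these, Trac, Nkg7, Cd3e, Cd3g and Cd8a were higher on average in p65 KO than in DKO, and Cd3d and Ncr1 were lower. Their counts were too low to rank the genotypes. The erythroid markers, led by Alas2, summed to 4675, 3362 and 3881 in control, 3783 and 3650 in Nrf2 KO, 3133 and 3516 in p65 KO, and 5605, 4939 and 4730 in DKO, and edgeR called 0 of the 5 genes. Alas2 made up most of this sum, and each of the 4 globin genes was highest in DKO replicate 1, as for Hbb-bs with 452.3, 161.6 and 91.54 in DKO beside at most 71.91 in control. B cell markers, led by Ighm, summed to 86.14, 392.4 and 188.7 in control, 134.5 and 156.8 in Nrf2 KO, 53.84 and 75.61 in p65 KO, and 455.5, 163.8 and 339.8 in DKO. Their p65 KO libraries were below all others, and 0 of the 3 tested genes were called. Cholangiocyte markers, led by Sox9, summed to between 151.3 and 444.2 per library and platelet markers to between 24.29 and 65.22, with 0 called and Gp1bb at 0 in all 10 libraries. In bulk RNA of this kind, fewer cells of a type and less RNA per cell cannot be told apart. These marker values stand beside every p65 KO and DKO result below, and their part in the results was not tested.

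All 40 genes were abundant. The lowest value of any of them in any library was 1031 normalized counts, of Pros1, so the filter on low counts, which kept 13641 genes, removed none of them. Together the 40 genes took 3.83% to 4.44% of all counts in the control libraries, 4.51% and 4.57% in Nrf2 KO, 4.33% and 4.63% in p65 KO, and 3.20% to 4.38% in DKO. The share was above the control range in both Nrf2 KO libraries and in p65 KO replicate 1, while DKO replicate 3 lay below it. On the TMM scale their sum was above the control range (1425110 to 1771771 normalized counts) in Nrf2 KO replicate 2 alone, with 1818009, and below it in DKO replicate 3, with 1346501. The 3 fibrinogen chains alone made up 1.33% ± 0.14 (SD, n = 3) of the counts in control. To compare levels between genes, normalized counts were divided by the length of each gene's canonical transcript. On this scale, Fgg was highest in control with 80629 ± 8865 normalized counts per kilobase (SD, n = 3), followed by Fga with 69060 ± 8716, Fgb with 48823 ± 5634, C3 with 42652 ± 9353 and Vtn with 41965 ± 7224. The lowest were F11 with 824.9 ± 39.85, Masp1 with 801.3 ± 20.85 and Pros1 with 376.4 ± 33.68 normalized counts per kilobase. Of the 39 pairs of neighbours in this order, 9 did not overlap between their control libraries. Fgg and Fga overlapped, as did C3 and Vtn, whereas Fga lay above Fgb, and Masp1 above Pros1, in all 3 control libraries.

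Each knockout was compared with control, and DKO with each single knockout, to ask which of these genes depend on either factor or on both. Genes were called at an adjusted p of at most 0.05 over all 13641 genes tested. In Nrf2 KO, 0 of the 40 genes passed edgeR's quasi-likelihood test, beside 0.726% of all genes tested. At an unadjusted p under 0.05 there were 6 (4 higher and 2 lower), and DESeq2 called 3 (Masp2, C6 and F7) and limma 0. In p65 KO, 6 of the 40 passed, which is 15% beside 14.9% of all genes, with 5 higher (8.13% of all genes were higher) and 1 lower (6.77%). The higher genes were C4b, Pros1, Masp1, F5 and C1ra, and the lower gene was Mbl1. DESeq2 called these and C1s1, Kng1, F11 and Fgg, and limma these and F11. In DKO, 3 passed (5.45% of all genes), C4b, F11 and F7, all higher (2.61% of all genes), and 0 were lower (2.84%), with 2 lower at an unadjusted p under 0.05 and 0 lower by DESeq2 or limma. DESeq2 called these 3 and C1s1, Hc and F10, while limma called F11 and F7 and not C4b. The members' share was thus close to that of all genes in p65 KO, and in DKO it was 7.5% beside 5.45%. In 40 genes such a gap rests on few calls and is not read as a property of the members. Among the 3768 genes that averaged 1000 normalized counts or more, a level chosen after the values had been seen because every member exceeds it, the shares called were 1.51% (Nrf2 KO), 20.1% (p65 KO) and 8.63% (DKO). The members' shares lay below these in all 3 comparisons. The comparisons with control share the control libraries and are not independent of each other.

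No member reached a 2-fold difference with an adjusted p of at most 0.05 by edgeR in any of these comparisons, while among all genes 0.55% did (Nrf2 KO), 6.59% (p65 KO) and 2.38% (DKO). By the same test without the fold requirement, the counts at an unadjusted p under 0.05 were 6, 12 and 10. The 95% interval of the log2 fold change lay inside 2-fold in either direction for 39 members in Nrf2 KO (65.2% of all genes), 38 in p65 KO (58.7%) and 39 in DKO (64% of all genes). The libraries of the compared genotypes did not overlap for 18 members in Nrf2 KO (28.5% of all genes), 14 of them higher and 4 lower, for 16 in p65 KO (50% of all genes), 13 higher and 3 lower, and for 11 in DKO (26.5% of all genes), 10 higher and 1 lower. The median log2 fold change of the 40 genes was 0.14 (Nrf2 KO), 0.01 (p65 KO) and 0.14 (DKO), where the median over all genes was 0.00, 0.00 and 0.02. The standard errors of these fold changes had a median of 0.15, 0.15 and 0.13 on the log2 scale. Over all genes that median was 0.20, 0.20 and 0.18, so the shares of all genes above include less precisely measured genes. Without regard to sign, the median log2 fold change of the members was 0.18, 0.20 and 0.22. Among the genes averaging 1000 normalized counts or more it was 0.12, 0.24 and 0.17. DKO was also compared with each single knockout. Against Nrf2 KO, 0 members passed by edgeR (0.513% of all genes), with 9 at an unadjusted p under 0.05, 4 by DESeq2 (Mbl2, Masp2, Hc and Pros1) and 1 by limma (Masp2). Against p65 KO, C1ra alone passed (4.11% of all genes), and it was lower (2.06%), while 0 were higher (2.05%), with 4 higher at an unadjusted p under 0.05 and 0 by DESeq2 and limma. In the test of the interaction, which asks whether the effect of p65 loss differed with and without Nrf2, 0 members passed by edgeR (0.469% of all genes), with 7 at an unadjusted p under 0.05 and 0 by DESeq2 and limma. With equal totals in place of TMM, the log2 fold changes of genes averaging 50 normalized counts or more shifted by a median of 0.18 for p65 KO and of -0.27 for DKO against p65 KO. With that scaling 12 members passed in p65 KO (11 higher), 0 in DKO and 5, all lower, in DKO against p65 KO, and the higher share of all calls went from 54.6% to 82.1% in p65 KO, from 47.9% to 27.4% in DKO and from 49.9% to 7.70% in DKO against p65 KO. It also moved the median of the interaction term by -0.27, the higher share of all calls there from 56.3% to 19.3% and that in DKO against Nrf2 KO from 62.9% to 48.2%. In Nrf2 KO, DESeq2 moved that share from 18.2% to 28.4%. All fold changes below are relative to the TMM scale.

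**Figure D1:**
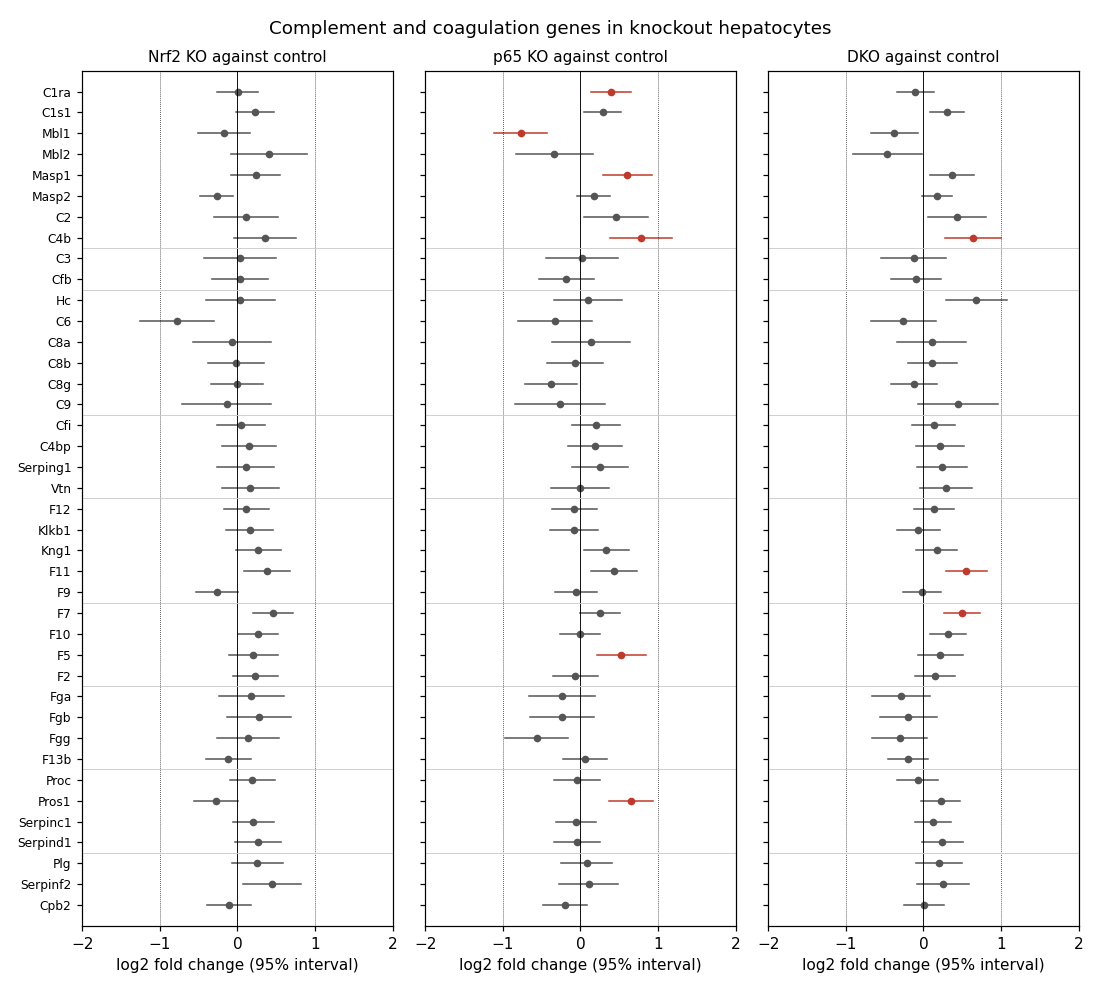
Log2 fold change of the 40 genes against control (points) in each knockout genotype with 95% intervals (lines), in the order of their roles with grey lines between roles, and with dotted lines at 2-fold; red marks an adjusted p of at most 0.05. Most intervals lie inside the dotted lines, and 0, 6 and 3 genes are red.

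The classical and lectin pathways start with recognition molecules and the proteases that they carry, and 4 of the 8 genes of this group passed in p65 KO by edgeR, beside 14.9% of all genes and 20.1% of those averaging 1000 normalized counts or more. DESeq2 called 5 of the 8 and limma 4. The edgeR calls shared a dependence on p65 KO replicate 1. Without it their log2 fold changes were all smaller in size, at 0.59 (C4b), 0.39 (Masp1), 0.36 (C1ra) and -0.66 (Mbl1). C4b, the complement component that is cleaved to tag surfaces and to form the C3 convertase, lies at chr17:34947354-34962912 on the minus strand. It had 46101, 39636 and 37668 normalized counts in control, 53910 and 51591 in Nrf2 KO, 78861 and 62077 in p65 KO, and 70169, 72397 and 49298 in DKO. All knockout libraries were above all control libraries, and the p65 KO libraries were above those of Nrf2 KO. C4b rose by a log2 fold change of 0.78 ± 0.18 (SE; edgeR adjusted p = 0.0191) in p65 KO and 0.64 ± 0.16 (edgeR adjusted p = 0.0491) in DKO, and its log2 fold change in Nrf2 KO was 0.36 (edgeR adjusted p = 0.61). The p65 KO call was lost without control replicate 2 (log2 fold change 0.75, edgeR adjusted p = 0.0519), control replicate 3 (0.71, adjusted p = 0.0606) or p65 KO replicate 1 (0.59, adjusted p = 0.167). The DKO call held in 1 of the 10 fits with a library left out, with log2 fold changes of 0.54 to 0.80 and edgeR adjusted p between 0.0168 and 0.142. The neighbouring gene C4a was not analysed here, and 42% of the 31-base words in C4b transcripts also occur in C4a, and the split of reads between the copies was not tested.

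Masp1, a protease of the lectin pathway, lies at chr16:23268167-23339779 on the minus strand. It had 4412, 4214 and 4224 normalized counts in control, 4581 and 5491 in Nrf2 KO, 7404 and 5622 in p65 KO, and 5059, 6248 and 5321 in DKO. The control libraries lay close together and below all others, and p65 KO replicate 1 was the highest. The log2 fold change was 0.60 ± 0.14 (SE; edgeR adjusted p = 0.0203) in p65 KO, 0.37 (edgeR adjusted p = 0.123) in DKO and 0.23 (edgeR adjusted p = 0.706) in Nrf2 KO. The p65 KO call was lost without p65 KO replicate 1 (log2 fold change 0.39, edgeR adjusted p = 0.194) and without control replicate 1 (0.63, adjusted p = 0.0539), 2 (0.59, adjusted p = 0.0533) or 3 (0.59, adjusted p = 0.0584).

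C1ra encodes the C1r protease, which starts the classical pathway within the C1 complex, and lies at chr6:124489364-124500402 on the plus strand. Its normalized counts were 14357, 13094 and 13604 in control, 13427 and 14006 in Nrf2 KO, 18338 and 17608 in p65 KO, and 13186, 13854 and 11167 in DKO. Both p65 KO libraries were above every other library, and DKO overlapped with control. C1ra rose in p65 KO (log2 fold change 0.39 ± 0.12, edgeR adjusted p = 0.0481) and was lower in DKO than in p65 KO (log2 fold change -0.50 ± 0.12, edgeR adjusted p = 0.0434), with a log2 fold change of -0.10 (edgeR adjusted p = 0.603) in DKO against control. The interaction term was -0.50 (edgeR adjusted p = 0.242), so a difference in the effect of p65 loss between the Nrf2 genotypes was not called. Both calls were near the threshold. With libraries left out 1 at a time, the first held in 2 of 10 fits (edgeR adjusted p from 0.035 to 0.214, log2 fold change 0.36 to 0.43), and the second in 1 of 10 (edgeR adjusted p from 0.0377 to 0.186, log2 fold change -0.56 to -0.41). C1ra shares 51.7% of its 31-base words with C1rb, which had at most 19.99 normalized counts in any library.

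Mbl1 encodes a mannose-binding lectin, a recognition molecule of the lectin pathway, and lies at chr14:40873400-40899779 on the plus strand. It had 8197, 5939 and 6466 normalized counts in control, 5956 and 6264 in Nrf2 KO, 3696 and 4358 in p65 KO, and 5913, 5035 and 4943 in DKO. Both p65 KO libraries were below every other library. Mbl1 fell by a log2 fold change of 0.77 ± 0.15 (SE; edgeR adjusted p = 0.0109) in p65 KO, the lowest value among the 40 genes in that comparison, and its log2 fold changes in DKO and Nrf2 KO were -0.37 (edgeR adjusted p = 0.136) and -0.17 (edgeR adjusted p = 0.826). Without p65 KO replicate 1 the log2 fold change was -0.66 and the edgeR adjusted p 0.105. Mbl2, the other mannose-binding lectin and the gene of this group with the highest control level per kilobase, had 11261, 9451 and 14886 normalized counts in control, 15640 and 15850 in Nrf2 KO, 8505 and 10317 in p65 KO, and 6509, 8364 and 10914 in DKO. Its libraries overlapped between control and both p65 KO and DKO, and its log2 fold changes were 0.41 in Nrf2 KO (edgeR adjusted p = 0.647), -0.33 in p65 KO (edgeR adjusted p = 0.339) and -0.47 in DKO (edgeR adjusted p = 0.202). DKO was below Nrf2 KO in all libraries (log2 fold change -0.87, edgeR adjusted p = 0.121), a difference that did not pass by edgeR and that DESeq2 called. The remaining genes of the group, the proteases C1s1, Masp2 and C2, had log2 fold changes of 0.17 to 0.46 in p65 KO and of 0.17 to 0.43 in DKO and did not pass by edgeR, while DESeq2 called C1s1 in both.

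C3, the central component on which all activation pathways converge, lies at chr17:57510964-57535155 on the minus strand. It had 271900, 176527 and 211570 normalized counts in control, 210591 and 239687 in Nrf2 KO, 213928 and 232778 in p65 KO, and 187006, 251488 and 166577 in DKO. The genotypes overlapped, and the log2 fold changes were 0.03, 0.02 and -0.12 with edgeR adjusted p of 0.983, 0.958 and 0.731. The C3 control libraries spread widely (SD 48242 around a mean of 219999), and the 95% interval in p65 KO ran from -0.45 to 0.49 on the log2 scale. Cfb, factor B of the alternative pathway, had log2 fold changes of 0.04, -0.18 and -0.10 and did not pass. C2 and Cfb are homologous proteases of neighbouring genes on chromosome 17, and their ratio was examined after the values had been seen, as 1 of 8 ratios between related members. Per kilobase, the ratio of C2 to Cfb was 0.116, 0.116 and 0.108 in control, 0.120 and 0.119 in Nrf2 KO, 0.192 and 0.163 in p65 KO, and 0.180, 0.157 and 0.150 in DKO. All 5 libraries with floxed p65 alleles had a higher ratio than all 5 libraries without, and no test was run on it. Of the other 7 ratios, 6 did not separate these libraries, and that of C8g to C8b was at most 1.947 with floxed p65 alleles and at least 1.95 without. A readthrough gene, Gm20547, shares 34.6% of the 31-base words of C2 and 60.5% of those of Cfb, and had between 0 and 189.3 normalized counts, and the split of reads between these genes was not tested.

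The terminal components assemble into the membrane attack complex, and 0 of the 6 genes passed edgeR's test in any comparison. C9, which forms the pore and was the highest of them per kilobase in control, had 31728, 16161 and 19353 normalized counts in control, 18631 and 22072 in Nrf2 KO, 17766 and 19602 in p65 KO, and 35974, 31962 and 23779 in DKO. Control replicate 1 lay at the level of the DKO libraries, and the log2 fold change in DKO was 0.45 (edgeR adjusted p = 0.285). Hc, which encodes C5, was named after its values were seen, because it came closest to the threshold in DKO. It had 35223, 24955 and 25403 normalized counts in control, 27460 and 31161 in Nrf2 KO, 30903 and 30206 in p65 KO, and 55538, 46446 and 35408 in DKO. Each DKO library was above every other library, with a log2 fold change against control of 0.68 and an edgeR adjusted p of 0.0538, and DESeq2 called it. C6 was likewise named for its values in Nrf2 KO, with a log2 fold change of -0.78 (edgeR adjusted p = 0.215) that was the lowest of the 40 genes there. Its normalized counts were 10599, 8214 and 6763 in control, 5633 and 4319 in Nrf2 KO, 6174 and 7431 in p65 KO, and 8421, 7258 and 5689 in DKO. The genes of the C8 chains, C8a, C8b and C8g, had log2 fold changes between -0.38 and 0.14 in the comparisons with control. At an unadjusted p under 0.05 there was 1 of the 6 in each comparison with control (C6 in Nrf2 KO, C8g in p65 KO and Hc in DKO), and DESeq2 called 1, 0 and 1 and limma 0.

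The complement regulators Cfi, C4bp, Serping1 and Vtn limit the cascade, and 0 of these 4 genes passed by edgeR, DESeq2 or limma in the comparisons with control, with 0 at an unadjusted p under 0.05. Vtn, vitronectin, was the highest per kilobase and had 87004, 61986 and 71327 normalized counts in control, 78834 and 86210 in Nrf2 KO, 74400 and 71652 in p65 KO, and 95804, 98738 and 75182 in DKO. The log2 fold changes of the 4 regulators were 0.05 to 0.17 in Nrf2 KO, -0.01 to 0.25 in p65 KO and 0.13 to 0.29 in DKO, with edgeR adjusted p of at least 0.284.

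Of the contact and intrinsic pathway genes, F11 passed in DKO. F11, clotting factor XI, which activates factor IX, lies at chr8:45693697-45715177 on the minus strand. It had 2429, 2207 and 2303 normalized counts in control, 2840 and 3181 in Nrf2 KO, 3221 and 3027 in p65 KO, and 3377, 3954 and 2864 in DKO. All 7 knockout libraries were above all control libraries. F11 rose by a log2 fold change of 0.56 ± 0.12 (SE; edgeR adjusted p = 0.0262) in DKO, and its log2 fold change was 0.43 (edgeR adjusted p = 0.0516) in p65 KO, where DESeq2 and limma called it, and 0.38 (edgeR adjusted p = 0.351) in Nrf2 KO. The DKO call was lost without DKO replicate 1 (log2 fold change 0.56, edgeR adjusted p = 0.0626) or 2 (0.43, adjusted p = 0.0666) and without control replicate 1 (0.59, adjusted p = 0.074), 2 (0.52, adjusted p = 0.0853) or 3 (0.55, adjusted p = 0.0753). Kng1, which encodes the kininogen that carries plasma kallikrein and factor XI, was the highest of the group per kilobase. It had 65594, 61956 and 73288 normalized counts in control, 73052 and 88363 in Nrf2 KO, 81547 and 87461 in p65 KO, and 79235, 74827 and 72104 in DKO. The p65 KO libraries were above the control libraries, and the log2 fold change of 0.34 (edgeR adjusted p = 0.112) did not pass by edgeR, while DESeq2 called it. Kng1 shares 23.3% of its 31-base words with Kng2, and Klkb1, prekallikrein, 43.1% with the overlapping gene model Gm45753. The other genes, F12, Klkb1 and F9, had log2 fold changes between -0.27 and 0.16 against control.

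In the extrinsic and common pathway, F7 passed in DKO and F5 in p65 KO. F7, clotting factor VII, which starts coagulation together with tissue factor, lies at chr8:13076002-13085809 on the plus strand. It had 3188, 3086 and 3153 normalized counts in control, 4257 and 4384 in Nrf2 KO, 3906 and 3603 in p65 KO, and 4549, 4899 and 3816 in DKO. The 3 control libraries were close together and all 7 knockout libraries lay above them. F7 rose by a log2 fold change of 0.49 ± 0.11 (SE; edgeR adjusted p = 0.0248) in DKO, while its log2 fold change of 0.46 in Nrf2 KO had an edgeR adjusted p of 0.145, the lowest of the 40 genes in that comparison, and that of 0.26 in p65 KO an edgeR adjusted p of 0.159. The DKO call was lost without DKO replicate 1 (log2 fold change 0.48, edgeR adjusted p = 0.0661) or 2 (0.41, adjusted p = 0.0671) and without control replicate 1 (0.50, adjusted p = 0.0799), 2 (0.48, adjusted p = 0.0754) or 3 (0.50, adjusted p = 0.0688). F10, factor X, which lies next to F7 on the same strand (chr8:13087293-13106676), had log2 fold changes of 0.27, -0.01 and 0.31 in Nrf2 KO, p65 KO and DKO, none of which passed by edgeR, while DESeq2 called it in DKO.

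F5 encodes factor V, the cofactor that factor Xa needs to cleave prothrombin, and lies at chr1:163979289-164047846 on the plus strand. It had 12665, 14216 and 14976 normalized counts in control, 14842 and 17358 in Nrf2 KO, 20760 and 19462 in p65 KO, and 14468, 19034 and 15128 in DKO. The p65 KO libraries were the highest, and DKO overlapped with control. F5 rose by a log2 fold change of 0.53 ± 0.14 (SE; edgeR adjusted p = 0.0348) in p65 KO, and its log2 fold change in DKO was 0.22 (edgeR adjusted p = 0.351). The call was lost without p65 KO replicate 1 (0.48, edgeR adjusted p = 0.184) or 2 (0.57, adjusted p = 0.0813) and without control replicate 1 (0.46, adjusted p = 0.107), 2 (0.54, adjusted p = 0.0691) or 3 (0.58, adjusted p = 0.0562). F2, prothrombin, the highest of the group per kilobase, had 60415, 48957 and 58106 normalized counts in control, 62508 and 68527 in Nrf2 KO, 52455 and 54344 in p65 KO, and 61782, 66064 and 57725 in DKO. Its log2 fold changes of 0.23, -0.06 and 0.15 did not pass.

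**Figure D2:**
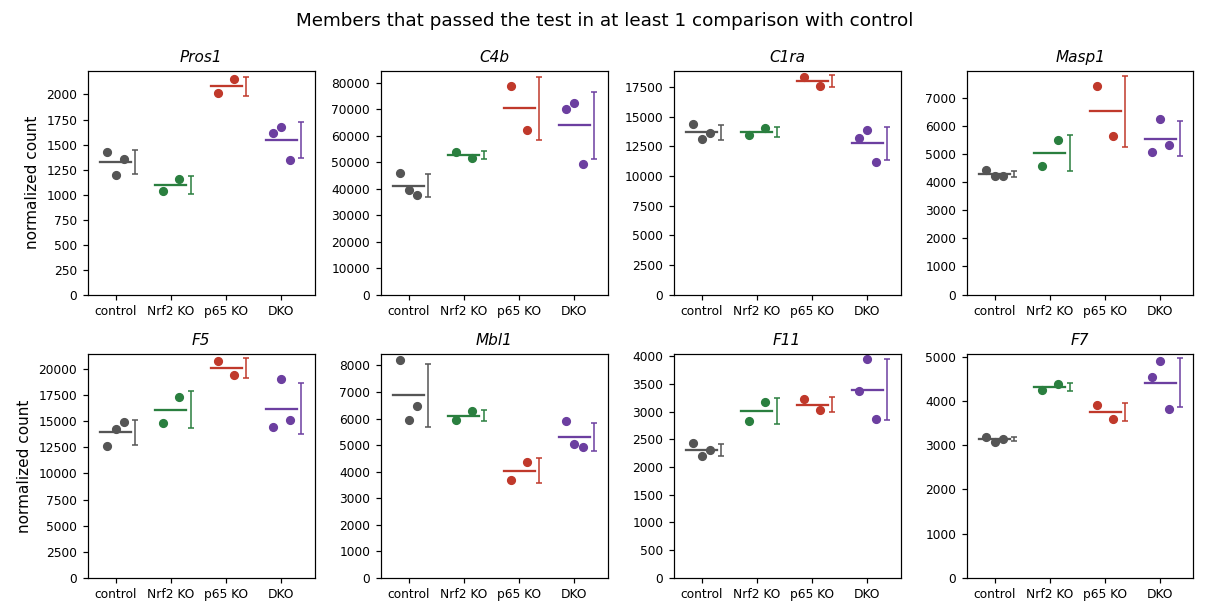
Normalized counts of the 8 genes that passed in p65 KO or DKO against control, with 1 point per library, a line at each group's mean, and a bar of 1 SD to each side beside it. Pros1, F5, C1ra, Masp1 and C4b are highest on average in p65 KO, and Mbl1 is lowest there. F7, F11, C4b and Masp1 lie above control in all knockout groups.

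Fibrinogen consists of the Aα, Bβ and γ chains, encoded by neighbouring genes on chromosome 3 (Fgg at chr3:82915030-82922363, Fga at chr3:82933383-82940934 and Fgb at chr3:82947448-82957170), and thrombin turns it into fibrin. Fgg had 169882, 146832 and 137548 normalized counts in control, 159781 and 172473 in Nrf2 KO, 107703 and 97114 in p65 KO, and 147863, 124131 and 95512 in DKO. Both p65 KO libraries and DKO replicates 2 and 3 were below all control libraries. The log2 fold change of Fgg was -0.56 (95% interval -0.97 to -0.16; edgeR adjusted p = 0.0625) in p65 KO, which did not pass, and DESeq2 called it. Fga and Fgb had log2 fold changes of -0.24 (edgeR adjusted p = 0.42) and -0.23 (edgeR adjusted p = 0.421) in p65 KO, and all 3 chains had values of 0.13 to 0.28 in Nrf2 KO and of -0.31 to -0.20 in DKO. The summed share of the 3 chains was 1.46%, 1.36% and 1.18% of all counts in control, 1.58% and 1.49% in Nrf2 KO, 1.33% and 1.07% in p65 KO, and 1.20%, 1.13% and 0.805% in DKO. Both Nrf2 KO libraries lay above both p65 KO libraries and all DKO libraries. Since the chains assemble in equal numbers, their ratios were also examined, after the values had been seen. Per kilobase, Fgg stood to Fgb at 1.64, 1.71 and 1.61 in control, 1.47 and 1.52 in Nrf2 KO, 1.25 and 1.39 in p65 KO, and 1.58, 1.47 and 1.53 in DKO. The p65 KO libraries had the lowest ratios and the control libraries the highest. The ratio of Fga to Fgb was 1.412, 1.497 and 1.335 in control, 1.374 and 1.270 in Nrf2 KO, 1.455 and 1.350 in p65 KO, and 1.313, 1.324 and 1.357 in DKO, and overlapped between control, p65 KO and DKO. No test was run on these ratios. F13b, the carrier subunit of the factor XIII that crosslinks fibrin, had log2 fold changes of -0.12, 0.06 and -0.20 and did not pass.

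Among the anticoagulants, Pros1 passed in p65 KO. Pros1 encodes protein S, the cofactor of activated protein C, and lies at chr16:62674275-62749710 on the plus strand. It had 1430, 1197 and 1350 normalized counts in control, 1031 and 1160 in Nrf2 KO, 2014 and 2150 in p65 KO, and 1615, 1675 and 1342 in DKO. The p65 KO libraries were above all other libraries, and the Nrf2 KO libraries below all others. Pros1 rose by a log2 fold change of 0.65 ± 0.13 (SE; edgeR adjusted p = 0.00931) in p65 KO, the lowest adjusted p among the 40 genes in that comparison, and it passed under each of the 18 alternatives without a fold threshold, with log2 fold changes between 0.58 and 0.83. Its log2 fold change was 0.22 (edgeR adjusted p = 0.286) in DKO and -0.28 (edgeR adjusted p = 0.562) in Nrf2 KO. In DKO against p65 KO it was -0.43 (edgeR adjusted p = 0.0823), which DESeq2 called. Serpinc1, antithrombin, the highest of the group per kilobase, had 72831, 63527 and 71728 normalized counts in control, 77428 and 82667 in Nrf2 KO, 66052 and 67479 in p65 KO, and 75449, 77812 and 73481 in DKO. It did not pass (log2 fold changes 0.21, -0.06 and 0.12), nor did Proc, protein C, or Serpind1, heparin cofactor II, whose log2 fold changes lay between -0.07 and 0.27.

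Of the 6 members whose proteins are carboxylated with vitamin K (F2, F7, F9, F10, Proc and Pros1), 1 was higher in p65 KO (8.13% of all genes), 1 was higher in DKO (2.61% of all genes) and 0 passed in Nrf2 KO by edgeR, where 2 (F7 and F10) had an unadjusted p under 0.05, DESeq2 called 1 and limma 0. The carboxylase Ggcx and the vitamin K reductases were measured beside them. Ggcx and Vkorc1 did not pass in any comparison, with log2 fold changes against control between -0.18 and 0.18. Vkorc1l1 had 1482, 1652 and 1421 normalized counts in control, 1319 and 1486 in Nrf2 KO, 2512 and 2226 in p65 KO, and 1557, 1468 and 1883 in DKO. It rose in p65 KO by a log2 fold change of 0.64 ± 0.13 (edgeR adjusted p = 0.0116) and was lower in DKO than in p65 KO (log2 fold change -0.53, edgeR adjusted p = 0.0481). Without p65 KO replicate 1 the first was 0.55 (edgeR adjusted p = 0.0981), and the second held in 1 of the 10 fits with a library left out (log2 fold change -0.64 to -0.45, edgeR adjusted p from 0.0307 to 0.238).

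The fibrinolysis genes Plg, Serpinf2 and Cpb2 did not pass in any comparison by edgeR, DESeq2 or limma, with 1 (Serpinf2 in Nrf2 KO) at an unadjusted p under 0.05 in the comparisons with control. Plg, plasminogen, the precursor of the protease that dissolves fibrin, had 89536, 76853 and 89638 normalized counts in control, 98637 and 105239 in Nrf2 KO, 94636 and 85702 in p65 KO, and 100980, 110224 and 82043 in DKO. Both Nrf2 KO libraries were above control, and the log2 fold changes were 0.26, 0.08 and 0.20. Those of Serpinf2, the plasmin inhibitor, were 0.45, 0.11 and 0.25, and those of Cpb2, a carboxypeptidase that protects fibrin, -0.11, -0.20 and 0.00.

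Other genes of both systems were counted from lists chosen by name. Beside the counts in these lists, 8.13% of all genes were higher and 6.77% lower in p65 KO, 2.61% were higher and 2.84% lower in DKO, and 0.726% passed in Nrf2 KO. Of 29 tested complement genes outside the 40, edgeR called 11 in p65 KO, all higher, and 4 in DKO, all higher, and 0 in Nrf2 KO, where 0 had an unadjusted p under 0.05 and DESeq2 and limma called 0. The lowest adjusted p in p65 KO were those of C1qb, C1qc and C1qa, the chains of C1q that Kupffer cells make, with log2 fold changes of 2.83, 3.15 and 2.77, and of Colec11, a lectin, with 3.16. In DKO the called genes were C1qb (1.66), C1qc (1.98), C1qa (1.80) and C3ar1, the receptor of C3a (3.25). C1qa, C1qb, C1qc and Vsig4 are also on the Kupffer list above, and C1qb had at most 537.4 normalized counts in any library, below the level of every member. Itgax, also called in p65 KO, is on the monocyte and dendritic cell list. Colec11 had 173.7 and 189.0 normalized counts in p65 KO and at most 86.40 in any other library. The part of other liver cells in these calls was not tested. With libraries left out 1 at a time, the DKO calls held in 7 of 10 fits for C1qb (edgeR adjusted p up to 0.0927), 6 for C1qc (up to 0.102), 6 for C1qa (up to 0.108) and 5 for C3ar1 (up to 0.121). Of 30 other coagulation genes, 8 were higher and 1 lower in p65 KO, 0 were higher and 1 lower (F2r) in Nrf2 KO, and 0 passed in DKO by edgeR, where 4 had an unadjusted p under 0.05 and DESeq2 and limma each called 2. The Nrf2 KO call of F2r (log2 fold change -0.94, edgeR adjusted p = 0.0491) held in 3 of 10 fits with a library left out (adjusted p up to 0.498), and was lost with equal totals (adjusted p = 0.0565), upper quartile scaling (0.0591), a mean of at least 10 counts (0.0524) and the replicate block (0.068). Those with the lowest adjusted p in p65 KO were Vkorc1l1, F8, clotting factor VIII (log2 fold change 0.96), Tfpi, the tissue factor pathway inhibitor (1.81), and Hrg, histidine-rich glycoprotein (0.51). Without p65 KO replicate 1, F8 was at 0.87 (edgeR adjusted p = 0.0996), Tfpi at 1.69 (0.107) and Hrg at 0.50 (0.116), and the call of Tfpi was also lost without control replicate 1 (1.70, adjusted p = 0.0574), and that of Hrg without control replicate 2 (0.49, adjusted p = 0.0547), control replicate 3 (0.48, adjusted p = 0.0656) or p65 KO replicate 2 (0.52, adjusted p = 0.066).

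Since several members are acute phase genes, 22 other acute phase genes and 18 liver transcription and cytokine signalling genes were measured for comparison. The shares of all genes beside these counts are again 8.13% higher and 6.77% lower in p65 KO, 2.61% higher and 2.84% lower in DKO, and 0.726% in Nrf2 KO. Of the acute phase genes, 4 were higher and 2 lower in p65 KO, and 4 higher and 1 lower in DKO, while 0 passed in Nrf2 KO by edgeR, where 4 had an unadjusted p under 0.05, DESeq2 called 1 and limma 0. Lcn2, lipocalin 2, had log2 fold changes of 2.67 in p65 KO and 3.16 in DKO, Saa3, a serum amyloid A, of -2.99 and -2.57, and Orm2, an orosomucoid, of 1.95 and 2.45. Orm2 shares 28.5% of its 31-base words with Orm1, which had 20683 to 33390 normalized counts beside 108.2 to 1141 of Orm2, and the split of reads between them was not tested. Lbp, which binds lipopolysaccharide, fell by a log2 fold change of 1.16 in p65 KO, and Itih4 rose by 0.78 in DKO. Orm2 in p65 KO was no longer called without control replicate 2 (1.75, edgeR adjusted p = 0.0615) or 3 (1.86, adjusted p = 0.0578) or without p65 KO replicate 1 (2.08, adjusted p = 0.0818) or 2 (1.81, adjusted p = 0.0787). In DKO, Orm2 and Itih4 were no longer called without control replicate 2 (adjusted p = 0.0505 and 0.0536). The log2 fold changes of these genes reached values that no member showed, since the 40 genes lay between -0.77 and 0.78 in p65 KO and between -0.47 and 0.68 in DKO. Of the liver factors, 6 were higher in p65 KO, among them Foxa3 (log2 fold change 1.01), Prox1 (0.88), Hnf4a (0.46) and Socs3 (3.16), while 0 passed in Nrf2 KO or DKO by edgeR, with 4 and 6 at an unadjusted p under 0.05, where DESeq2 called 1 and 0 and limma 0. Without p65 KO replicate 2, Prox1 was at 0.68 (edgeR adjusted p = 0.0654), and Hnf4a was not called without control replicate 1 (0.45, adjusted p = 0.0669), control replicate 2 (0.42, adjusted p = 0.0606), p65 KO replicate 1 (0.49, adjusted p = 0.0967) or p65 KO replicate 2 (0.43, adjusted p = 0.0874). Socs3 had 3963 normalized counts in p65 KO replicate 1 beside 807.2 in replicate 2, and without replicate 1 the log2 fold change was 1.60 (edgeR adjusted p = 0.305). Its call was also lost without control replicate 1 (adjusted p = 0.0817), 2 (0.0535) or 3 (0.0694). Among the Nrf2 KO libraries, Socs3 had 84.03 normalized counts in replicate 1 and 919.0 in replicate 2.

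Promoter sequence was examined because p65 and Nrf2 bind DNA. The 250 bases upstream of the canonical transcript start of 13637 tested genes were searched on both strands of GRCm39. An NF-κB motif, GGGA followed by any 4 bases and CC, was present in the windows of 7 of the 40 members, beside 20.1% of all windows. The core of the antioxidant response element, TGACNNNGC, was in the windows of 2 members (Klkb1 and Serpind1), beside 10.6% of all. A STAT3 motif, TTCNNNGAA, was in those of 4 (Masp2, C8a, F9 and Fgb; 6.74% of all), and a C/EBP motif, TTGCNNAAT, in those of 5 (C1s1, C3, C9, F9 and Fga; 1.75% of all). An HNF1 motif, GTTAAT followed by any base and ATT, was in those of 4 (Hc, C4bp, F13b and Plg; 0.367% of all), and an HNF4 motif, CAAAGTCCA, in 0 (0.403% of all). A match is a description of the letters and not a measured site. Some member windows hold annotated exon bases, which fill all 250 bases for F12. Members with a match and such bases include Cfb (232 bases), Klkb1 (169), Hc (160), Fga (139) and C9 (13). The windows of C3, the central component, and of C2 are shown as examples with NF-κB matches. They are, from GRCm39, chr17:35101091-35101340 (minus strand) for C2 and chr17:57535156-57535405 (minus) for C3, with the matches to any of these motifs in capitals.
C2: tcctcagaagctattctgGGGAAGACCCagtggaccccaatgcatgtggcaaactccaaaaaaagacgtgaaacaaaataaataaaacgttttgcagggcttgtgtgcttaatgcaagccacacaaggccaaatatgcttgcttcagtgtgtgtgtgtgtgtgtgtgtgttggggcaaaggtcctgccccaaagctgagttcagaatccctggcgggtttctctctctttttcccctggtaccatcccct
C3: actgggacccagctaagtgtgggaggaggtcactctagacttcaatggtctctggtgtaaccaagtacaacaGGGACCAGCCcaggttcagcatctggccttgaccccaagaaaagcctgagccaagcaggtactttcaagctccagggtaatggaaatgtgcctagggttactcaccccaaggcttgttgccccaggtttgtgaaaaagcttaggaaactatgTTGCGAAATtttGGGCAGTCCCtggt
In C2 the capitals mark the NF-κB match, and in C3 they mark a pair of NF-κB matches with a C/EBP match before the second. The C2 window is upstream of the canonical transcript start but lies inside the annotated C2 gene, which spans chr17:35081578-35117241.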

How the data were processed

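RNA from isolated hepatocytes of 10 libraries had been made into stranded, poly-A selected libraries. The deposited table holds estimated counts per gene, for which the submitters' processing notes name Salmon 1.10.3, DESeq2 1.42.1 and the GRCm39 build. Its name calls the counts normalized, but its values are whole numbers whose DESeq2 size factors run from 0.879 to 1.26, so they were treated as counts that had not been normalized. Names, positions and transcript lengths came from GENCODE M39, in which 21926 of 21939 identifiers were found.

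Genes whose counts reached 10 in sum (13641) were fitted in edgeR 4.0.16 with TMM normalization and its quasi-likelihood test, with the 4 genotypes in 1 model and Benjamini-Hochberg adjustment over all genes tested. Normalized counts are TMM-scaled counts at a common library size. Standard errors were derived from that test, as the size of the log2 fold change divided by the square root of its F statistic. The 95% intervals used these and the degrees of freedom of that fit, and SD is the standard deviation between libraries of a genotype. Alternatives were DESeq2 1.42.0, limma 3.58.1, other filters and scalings, fits of only the compared genotypes, a replicate block, a fold threshold, and each library left out in turn. The scripts were checked on simulated data and ran in R 4.3.3 and Python 3.11.15 with pandas 2.3.3 and matplotlib 3.10.9. Shared sequence was counted in words of 31 bases over all annotated transcripts. The promoter windows of 2 members are not reported here, and those of C2 and C3 are printed as examples.

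Described in full were the targeted genes, up to 8 passing members with the lowest adjusted p in each comparison with control, up to 4 in the other comparisons, and the member of each role with the highest control level per length. Up to 4 genes with the lowest adjusted p were named from each other list. Members and lists were chosen with earlier results of these data known. Log2 values were rounded to 2 decimals, per-library values to whole numbers from 1000 upward, and others to at least 3 significant digits.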

Additional observations from a re-analysis of the deposited data

Results flagged for a closer look

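Outside the 40 genes, 2 genes of the other lists were flagged because edgeR called them in the test of the interaction, which asks whether the effect of p65 loss differed with and without Nrf2. F2r, the thrombin receptor, had an interaction term of 1.735 on the log2 scale (edgeR adjusted p = 0.0221). It had 1116, 1215 and 1234 normalized counts in control, 635.7 and 602.2 in Nrf2 KO, 791.4 and 631.4 in p65 KO, and 1582, 1068 and 1048 in DKO, so both single knockouts lay below control and DKO. With a library left out, its call held in 4 of 10 fits, with an adjusted p from 0.0122 to 0.125. Foxa3, a liver transcription factor, had an interaction term of -1.25 (edgeR adjusted p = 0.0294). It had 2236, 2153 and 2218 normalized counts in control, 2749 and 2848 in Nrf2 KO, 4136 and 4736 in p65 KO, and 2831, 1958 and 2321 in DKO, so p65 KO lay above all other libraries. With a library left out, its call held in 3 of 10 fits, with an adjusted p from 0.0111 to 0.129, and it was lost with the replicate number as a block (adjusted p = 0.0831).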

How the results depend on the processing

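Over 51 called pairs of a gene and a comparison, 10 of them of members, no value reversed its direction, and 690 of 916 values stayed on their side of the threshold and 226 did not. Values near 0 did change sign, since equal totals moved the members above 0 from 20 to 31 in p65 KO and from 25 to 6 in DKO against p65 KO. Members passing in Nrf2 KO went from 0 to 3 with DESeq2. In p65 KO they went from 6 to 10 with DESeq2, to 12 with equal totals and to 0 with a log2 fold change of at least 1, and ranged from 1 to 8 with a library left out. In DKO they went from 3 to 6 with DESeq2, to 0 with equal totals, to 0 with only the 2 genotypes compared and to 0 with a log2 fold change of at least 1, and ranged from 0 to 5 with a library left out. In DKO against Nrf2 KO they went from 0 to 4 with DESeq2 and to 1 with limma. In DKO against p65 KO they went from 1 to 2 with DESeq2, to 5 with equal totals, and to 0 with upper quartile scaling, with only the 2 genotypes compared and with a log2 fold change of at least 1, and ranged from 0 to 1 with a library left out. The interaction stayed at 0. The cause was not tested. Where a library was left out of a genotype with 2, the remaining library was assumed to vary like the other groups.

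With the replicate number as a block, the counts were 0 in Nrf2 KO, 4 in p65 KO, 1 in DKO, 1 in DKO against Nrf2 KO, 0 in DKO against p65 KO and 0 for the interaction. In p65 KO this fit lost C1ra, Masp1 and F5 (edgeR adjusted p = 0.142, 0.0636 and 0.0639), and its count includes a member gained. In DKO it lost F11 and F7 (edgeR adjusted p = 0.0504 and 0.0514), and in DKO against p65 KO it lost C1ra (edgeR adjusted p = 0.12). Deviations of same-numbered control and DKO libraries correlated across genes at 0.113, 0.00647 and -0.0513, so the numbers were not taken to pair samples. The sizes of difference that 2 or 3 libraries a genotype can show are limited by the intervals given above.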
